A study of Mus musculus with 2 samples.

Results

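The glycolysis enzyme genes described here are 10 genes, Gpi1, Pfkl, Pfkm, Aldoa, Tpi1, Gapdh, Pgam1, Eno1, Pkm and Ldha, out of 21728 protein-coding genes of the mouse annotation (GENCODE vM21, assembly mm10). They were chosen by name, for the reactions they catalyse, with earlier results of these data known. EP300, a transcriptional coactivator, was immunoprecipitated with its bound chromatin and the DNA was sequenced (ChIP-seq), using livers of B6NCrl mouse embryos at 14.5 days, with the sexes mixed and the tissue of several dissections pooled. The series has 1 condition and 2 libraries, replicate 1 and replicate 2. Both libraries carry 1 biosample label and nothing in the labels names separate animals, so the spread between them may be technical. A gene was given a peak when the summit of a peak of the authors' optimal list lay within 20 kb of any of its annotated transcription start sites (TSSs), and 50 kb served as a wider window. A peak was called an own promoter peak when its summit lay within 1 kb of a TSS of the enzyme gene, a promoter peak of another gene when only another gene's TSS was that close, and distal when no TSS was.

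Glycolysis splits glucose into pyruvate with a net gain of ATP, and lactate dehydrogenase turns pyruvate into lactate while restoring NAD+. Mature red blood cells lack mitochondria and live on this pathway, and the fetal liver is a main site of red cell formation in the embryo. EP300 is a histone acetyltransferase that transcription factors recruit to active promoters and enhancers. Among the factors known to bind it are GATA1, the master regulator of erythroid genes, and the hypoxia-inducible factor HIF1, which recognises a short core within promoters of several glycolytic genes.

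EP300 peaks lay near most of these enzyme genes. Of the 10 genes, 8 had an optimal peak within 20 kb, where 38.6% of all protein-coding genes did, and 9 had one within 50 kb, where 53.7% of all did. Own promoter peaks were found at 6 genes, Pfkl, Pfkm, Gapdh, Pgam1, Eno1 and Ldha, beside 15.5% of all protein-coding genes. Distal peaks within 20 kb were found at 4 genes, Pfkl, Pfkm, Pgam1 and Pkm, beside 26.7% of all. Gpi1 and Pkm had peaks within 20 kb but none at their own promoters, Aldoa had peaks only beyond 20 kb, and Tpi1 had none within 50 kb. Among optimal peaks above the median signal alone, 5 genes had a peak within 20 kb, 5 within 50 kb and 2, Pfkm and Pgam1, at their own promoters. No test was run on these counts, because the list of genes was chosen and the series has no contrast.

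**Figure D1:**
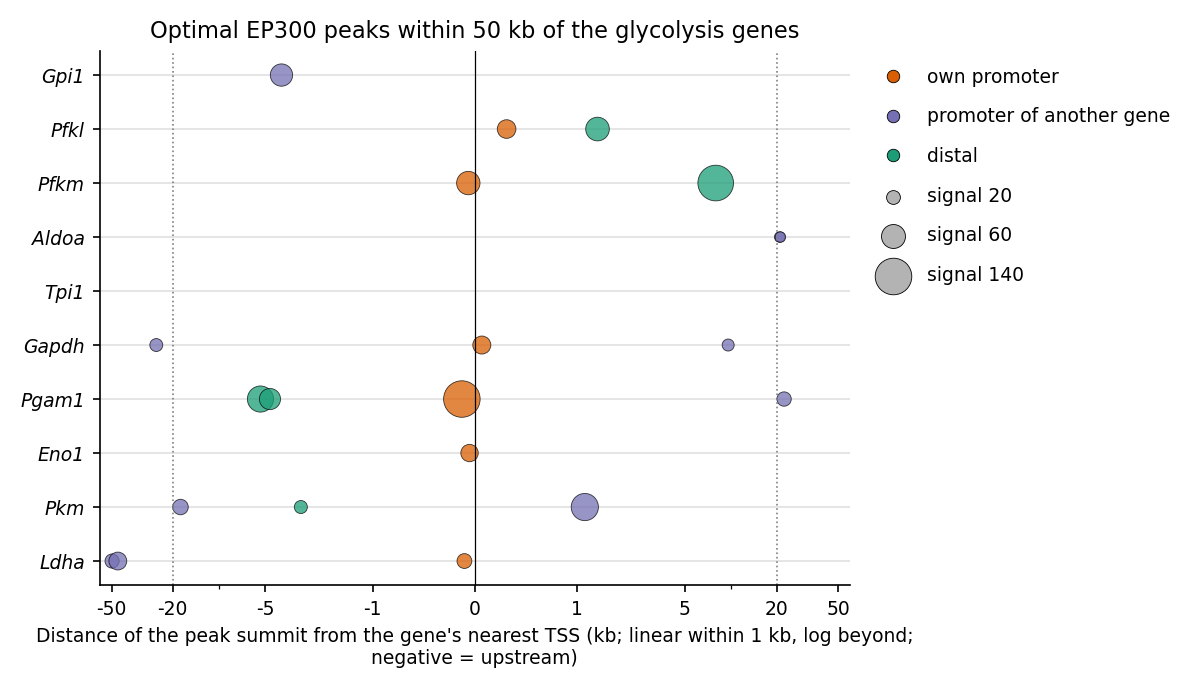
Each row is 1 of the 10 genes in pathway order, and each circle is an optimal peak placed by the distance of its summit from the gene's nearest TSS (kb, linear within 1 kb and log beyond), with circle area proportional to peak signal and colour for peak class. Own promoter circles stand at 6 genes, the circles of the Pgam1 promoter (139.8) and the Pfkm intron (133.2) are the largest, and the Tpi1 row is empty.

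The strength of a peak is given as its signal, the peak caller's value as the authors deposited it, and as its rank from strongest to weakest. Each list has its own scale, so libraries are compared by rank only. Signals of the 17055 optimal peaks ran from 5.20 to 570.3 with a median of 38.5. The conservative list, the authors' other selected list, held 15728 peaks, and each library's own unfiltered list held 300000. Read totals are not in the lists, so depth is unknown and no counting interval can be given. All 6 erythroid marker genes checked (Gata1, Klf1, Tal1, Slc4a1, Alas2 and Hbb-bs) had a peak within 20 kb, the strongest of each at 187.2 to 365.8. Of 5 hepatocyte markers, 4 had one, at 14.7 to 41.7, and Ttr had none. Peaks stood near 2 of 3 endothelial, 2 of 3 megakaryocyte, 0 of 3 macrophage and 0 of 2 neuron markers. Of all protein-coding genes, 38.6% had a peak within 20 kb. Some of the strongest marker peaks were closest to another protein-coding gene. That near Hbb-bs was closest to Hbb-bt, that near Apoa1 (41.7) to Sik3, that near Lyve1 to Rnf141 and that near Gp9 to Efcc1. The signal comes from whole liver, so a weak peak in many cells and a strong peak in few cells cannot be told apart.

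The first enzyme of the set, glucose-phosphate isomerase, turns glucose phosphate into fructose phosphate, and its gene Gpi1 spans chr7:34201330-34230336 on the minus strand. Its 1 peak within 50 kb, at chr7:34234083-34234422, had its summit 3917 bp upstream of the nearest Gpi1 TSS. That summit was 124 bp from the TSS of the antisense transcript Gm12758. The signal was 52.2, rank 6491 of 17055. In replicate 1 the matching peak had signal 19.6 and rank 8501, and in replicate 2 it had signal 33.4 and rank 5339. Both libraries therefore held it, and it was also in the conservative list. Gpi1 is the nearest protein-coding gene to it, although 4931406P16Rik and Gm6096 also have a TSS within 20 kb.

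Phosphofructokinase commits the sugar to glycolysis, and Pfkl encodes its liver form and Pfkm its muscle form. Pfkl, at chr10:77986947-78010083 on the minus strand, had 2 peaks. Its promoter peak at chr10:78009247-78009586, 310 bp downstream of a Pfkl TSS, had signal 36.3 and rank 8971. This peak ranked alike in the libraries, with signal 18.0 and rank 9240 in replicate 1 and signal 18.8 and rank 9267 in replicate 2. The distal peak of Pfkl, at chr10:78008201-78008540, lay 1356 bp downstream of a TSS in an exon of a noncoding Pfkl transcript. It was the stronger of the pair, with signal 58.6 and rank 5822. It ranked 6934 in replicate 1 (signal 24.3) and 5726 in replicate 2 (signal 31.3). No other protein-coding gene had a TSS within 20 kb of either peak.

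Pfkm, at chr15:98092589-98132451 on the plus strand, held the strongest distal peak of the set. This peak, at chr15:98116373-98116547, lay in a Pfkm intron, 7983 bp downstream of the nearest Pfkm TSS and 23860 bp inside the gene. Its signal was 133.2, rank 2414 of 17055. The libraries placed it almost level, at rank 2402 in replicate 1 (signal 65.5) and rank 2597 in replicate 2 (signal 64.9). The promoter peak of Pfkm, at chr15:98092355-98092694, lay 64 bp upstream of the most upstream Pfkm TSS and within an intron of Senp1, a SUMO protease gene. It had signal 57.3 and rank 5936, with rank 4656 in replicate 1 (signal 36.5) and rank 6887 in replicate 2 (signal 25.8). Senp1 also has a TSS within 20 kb of this promoter peak. Of all protein-coding genes, 9.02% had a stronger peak within 20 kb than Pfkm.

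Aldolase and triosephosphate isomerase act on the next steps, where the sugar is cleaved and its pieces are interconverted, and their genes were the ones without a peak within 20 kb. Aldoa spans chr7:126795234-126809108 on the minus strand, and the nearest optimal summit to one of its TSSs was 20841 bp downstream, just beyond the window and 45 bp from the TSS of Ypel3. Its signal was 11.6, rank 16220 of 17055. A neighbouring peak at 21068 bp, beside the noncoding gene Gm9967, had signal 11.5 and rank 16243. Neither was in the conservative list. Inside the 20 kb window, the outermost peaks of the set were those at 17807 bp from Pkm (25.2) and, well within the limit, 9623 bp from Gapdh (15.2). For Tpi1, at chr6:124810586-124814296, the nearest optimal summit was 70637 bp away, although 8 other protein-coding genes have a TSS within 50 kb of its own.

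The conservative list held peaks near these last genes that the optimal list lacked. For Tpi1 they lay 15653 bp upstream, beside Cdca3 (signal 19.2), and 14854 bp upstream, beside Usp5 (signal 13.1). For Aldoa there was 1, at 17370 bp downstream in an untranslated region of Ypel3, with signal 11.3. Near Gapdh there were 2, at 5730 and 5944 bp upstream in an intron of Ncapd2, with signals 9.85 and 9.31. All 5 were nearer to a TSS of a gene other than the enzyme gene. The Aldoa peak matched a summit of both libraries within 100 bp. The Tpi1 peak beside Cdca3 matched neither library, and that beside Usp5 matched only replicate 2. The Gapdh peak at 5730 bp matched only replicate 2, and that at 5944 bp only replicate 1.

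The payoff steps begin with glyceraldehyde phosphate dehydrogenase, whose gene Gapdh lies at chr6:125161715-125166467 on the minus strand. Its promoter peak at chr6:125165535-125165874, 68 bp downstream of a TSS in an untranslated region, had signal 34.1 and rank 9487. It ranked higher in replicate 2, at 6511 (signal 27.2), than in replicate 1, at 12323 (signal 13.2). Iffo1 and Ncapd2 also have a TSS within 20 kb of this peak. The other Gapdh peak within 20 kb, at chr6:125152734-125153073, was 9623 bp downstream and 444 bp from a TSS of Iffo1. It had signal 15.2 and rank 15538, with rank 15772 in replicate 1 (signal 10.2) and only rank 234382 in replicate 2 (signal 3.87). That peak was not in the conservative list. Another peak, 25602 bp upstream at Mrpl51, had signal 17.5.

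Phosphoglycerate mutase shifts the phosphate group within phosphoglycerate, and its gene Pgam1 carried the strongest promoter peak of the set. The peak, at chr19:41911626-41911965, lay 127 bp upstream of a Pgam1 TSS and had signal 139.8, rank 2274 of 17055. It had signal 52.0 and rank 3165 in replicate 1, and signal 83.3 and rank 1838 in replicate 2. A pair of distal peaks stood 5369 and 4656 bp upstream in intergenic sequence, where the nearest TSS of any kind was that of the pseudogene AC145557.1 at 3665 and 4378 bp. The farther one, at chr19:41906384-41906723, had signal 71.6, with rank 5382 in replicate 1 (signal 31.6) and rank 4198 in replicate 2 (signal 42.3). The nearer one, at chr19:41907097-41907436, had signal 46.8, with rank 7056 in replicate 1 (signal 23.8) and rank 7664 in replicate 2 (signal 23.0). Rrp12 also has a TSS within 20 kb of the promoter peak and of both distal peaks. All 3 peaks were in both libraries and in the conservative list. Their summed signal of 258.2 was the highest of the 10 genes, and 8.61% of all protein-coding genes had a stronger single peak. Another peak, 22258 bp downstream at Zdhhc16, had signal 21.6.

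Enolase makes phosphoenolpyruvate, and Eno1, its widely expressed gene at chr4:150236721-150248879, had 1 peak within 50 kb. This promoter peak, at chr4:150236730-150237069, lay 52 bp upstream of a TSS, in an intron of Eno1 by other transcripts, and had signal 31.7, rank 10056. It was far apart in the libraries, at rank 7358 in replicate 1 (signal 22.8) and rank 61848 in replicate 2 (signal 5.74). It was the only own promoter peak of the 6 that was not in the conservative list.

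Pyruvate kinase makes pyruvate and ATP, and Pkm encodes the form of muscle and of proliferating cells. Pkm, at chr9:59656368-59679375 on the plus strand, had 3 peaks and none at its own promoter. The strongest, at chr9:59672537-59672876, lay 16339 bp inside the gene in an exon of a noncoding Pkm transcript, 1121 bp downstream of the nearest Pkm TSS. It counts as a promoter peak of another gene because Gm49759, an unverified transcript, has a TSS 107 bp away. Its signal was 77.5, rank 4424, with rank 4389 in replicate 1 (signal 38.8) and rank 3960 in replicate 2 (signal 44.7). Gramd2 also has a TSS within 20 kb of this peak. The distal peak, at chr9:59653269-59653608 and 2929 bp upstream, had signal 17.8 and rank 14595. It matched a peak of replicate 2 (signal 13.9, rank 12236) and none of replicate 1. Parp6 also has a TSS within 20 kb of this distal peak. The third, at chr9:59638391-59638730, lay 17807 bp upstream in Parp6 and had signal 25.2, with rank 22062 in replicate 1 (signal 7.94) and rank 9407 in replicate 2 (signal 18.5).

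Lactate dehydrogenase A closes the set, and Ldha, at chr7:46841475-46855627 on the plus strand, had the weakest of the 6 own promoter peaks. The peak, at chr7:46845567-46845906, lay 102 bp upstream of a TSS, 4262 bp downstream of the most upstream annotated start. It had signal 23.0 and rank 12704. In replicate 1 it had signal 7.16 and rank 27207, and in replicate 2 signal 10.6 and rank 16050. It was in both libraries and in the conservative list. Ldhc also has a TSS within 20 kb of this peak. A pair of peaks 45588 and 49682 bp upstream, at Hps5, had signals 33.4 and 21.0.

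Across the 8 genes with a peak within 20 kb, the strongest peak ran from 23.0 at Ldha to 139.8 at Pgam1, with a median of 55.4. The median over all 8386 protein-coding genes with such a peak was 56.8. By strongest peak the order was Pgam1, Pfkm, Pkm, Pfkl, Gpi1, Gapdh, Eno1 and Ldha. Of the 15 peaks within 20 kb, 14 had a summit of both libraries within 100 bp, beside 84.3% of all optimal peaks. Of the same 15, 11 were also in the conservative list, beside 78.4% of all. A match could be any entry of a library's unfiltered list, as at rank 234382 in replicate 2 for the Gapdh peak at 9623 bp. The optimal list was made from both libraries, so such matches are not independent of its selection. The 6 peaks at 20 to 50 kb had a median signal of 19.3 and a range of 11.5 to 33.4, which overlaps that of the 15 peaks within 20 kb (median 46.8, range 15.2 to 139.8). All 6 lay at promoters of other genes, 4 had a summit of both libraries, and 0 were in the conservative list.

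**Figure D2:**
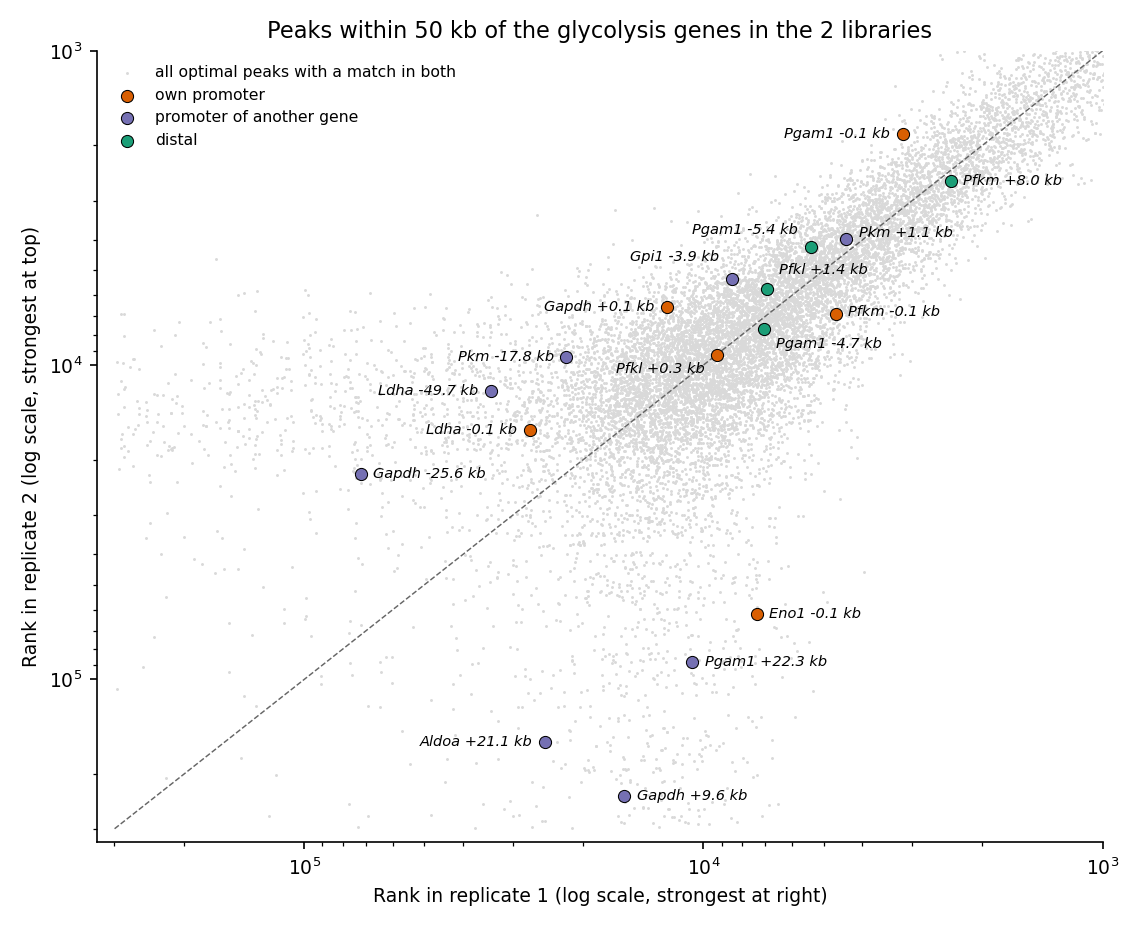
Rank of each peak within 50 kb of a glycolysis gene in replicate 1 (horizontal, log scale) and replicate 2 (vertical, log scale), for the 18 of 21 peaks found in both libraries, labelled with the gene and the signed distance from its TSS, with all optimal peaks found in both in grey. The Pfkm intronic and Pfkl promoter peaks sit near the diagonal, and the Eno1 promoter peak and the Gapdh peak at 9623 bp rank far lower in replicate 2.

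Sequences at the own promoter peaks and at the other peaks were read separately. Letters were taken from GRCm38 (mm10) within 100 bp of the summit, 5′ to 3′ on the strand of the enzyme gene, with any annotated untranslated region left out of what is printed. These 5 promoter peaks are shown because the motif counts turn on them. Capitals mark the hypoxia response core (ACGTG or GCGTG on either strand) in Pfkl, Eno1 and Ldha, with the cyclic AMP response element TGACGTCA also in capitals in Ldha. They mark the NRF1 site (GCGCATGC) in Pgam1 and the GATA motif (AGATAA or AGATAG or TGATAA or TGATAG) in Pfkm.
Pfkl promoter peak, chr10:78009317-78009517, minus strand: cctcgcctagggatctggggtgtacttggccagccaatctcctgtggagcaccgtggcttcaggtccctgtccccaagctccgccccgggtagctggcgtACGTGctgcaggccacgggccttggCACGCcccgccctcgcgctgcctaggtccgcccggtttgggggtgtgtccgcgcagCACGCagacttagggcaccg
Pgam1 promoter peak, chr19:41911696-41911896, plus strand: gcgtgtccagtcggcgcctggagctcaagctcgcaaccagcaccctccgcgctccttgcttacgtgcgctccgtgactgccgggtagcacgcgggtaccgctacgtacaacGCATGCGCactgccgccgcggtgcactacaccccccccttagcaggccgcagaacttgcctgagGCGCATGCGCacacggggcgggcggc
Eno1 promoter peak, chr4:150236872-150236951, plus strand: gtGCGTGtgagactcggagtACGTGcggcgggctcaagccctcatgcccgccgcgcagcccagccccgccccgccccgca
Ldha promoter peak, chr7:46845637-46845837, plus strand: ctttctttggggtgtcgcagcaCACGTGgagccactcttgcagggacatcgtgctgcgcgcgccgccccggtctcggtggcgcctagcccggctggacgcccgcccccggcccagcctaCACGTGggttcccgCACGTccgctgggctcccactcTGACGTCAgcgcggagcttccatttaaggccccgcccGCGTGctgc
Pfkm promoter peak, chr15:98092425-98092588, plus strand: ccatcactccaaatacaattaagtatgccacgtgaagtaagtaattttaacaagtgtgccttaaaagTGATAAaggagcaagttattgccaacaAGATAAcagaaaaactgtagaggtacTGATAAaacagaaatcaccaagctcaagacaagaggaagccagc

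The core was in 6 of the 6 own promoter peaks, beside 41.2% of all 4473 optimal promoter peaks searched over the same length. Counts are over the whole 201 bases, of which a printed stretch may hold fewer. Ldha held 6 cores, Eno1 held 4, Pfkl, Pfkm and Pgam1 held 3 each and Gapdh held 1. A CACGTG, the E-box of MYC and USF proteins, contains the core on both strands and so counts as 2 of them. CACGTG itself was in 2 of the 6, Pfkm and Ldha, beside 5.59% of all promoter peaks. The GC box of SP1 (GGGCGG) was in 5 of 6, beside 31.5%, and Pfkm was the one without it. NRF1 sites were in Pgam1 alone of the 6, with 3 matches of which 2 overlap, beside 1.45% of all promoter peaks. The cyclic AMP response element was in Ldha alone, beside 1.57%. The CCAAT letters read by NFY were in Pfkl alone, beside 25.3%. No own promoter peak held the ETS (CCGGAAG), AP-1 (TGACTCA or TGAGTCA), YY1 (AAGATGGC) or CACCC letters searched. A match describes letters and is not evidence that the factor bound there.

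GATA motifs were in 1 of the 6 own promoter peaks, Pfkm, beside 42.1% of all promoter peaks, and in 5 of the 5 distal peaks within 20 kb, beside 86.3% of all distal peaks. Of all 9 peaks within 20 kb that were not at own promoters, 8 held a GATA motif, and the Gpi1 peak was the exception, with 5 hypoxia cores. The following 4 peaks are shown because they are the strongest GATA-bearing peaks away from the promoters. Capitals mark the GATA motif on either strand and, where it stands at the set spacing of 7 to 9 bases, the CTG of the composite E-box and GATA element known from erythroid enhancers.
Pfkl intragenic peak, chr10:78008271-78008471, minus strand: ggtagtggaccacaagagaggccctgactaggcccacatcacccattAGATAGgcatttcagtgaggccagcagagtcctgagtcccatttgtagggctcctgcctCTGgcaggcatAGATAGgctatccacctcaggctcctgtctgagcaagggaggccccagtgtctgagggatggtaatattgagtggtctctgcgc
Pfkm intronic peak, chr15:98116349-98116549, plus strand: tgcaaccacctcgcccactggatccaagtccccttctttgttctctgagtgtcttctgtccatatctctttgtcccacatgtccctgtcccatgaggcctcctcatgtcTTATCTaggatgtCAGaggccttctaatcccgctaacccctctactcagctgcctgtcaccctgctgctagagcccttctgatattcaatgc
Pgam1 upstream peak, chr19:41906454-41906654, plus strand: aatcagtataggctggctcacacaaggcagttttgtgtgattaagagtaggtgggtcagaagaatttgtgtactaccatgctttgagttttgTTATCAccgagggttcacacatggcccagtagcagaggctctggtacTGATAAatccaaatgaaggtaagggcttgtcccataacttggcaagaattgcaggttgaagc
Pkm intragenic peak, chr9:59672607-59672807, plus strand: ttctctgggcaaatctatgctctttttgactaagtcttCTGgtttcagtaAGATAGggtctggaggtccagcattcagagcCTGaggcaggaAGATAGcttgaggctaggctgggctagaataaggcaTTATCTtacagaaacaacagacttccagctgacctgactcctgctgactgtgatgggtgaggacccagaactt

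The composite element was in 4 of these 9 peaks, beside 21.3% of all distal and 8.79% of all promoter peaks. It stood once in the Pfkl and Pfkm intragenic peaks and in the Pkm peak at Parp6, and 2 times in the Pkm intragenic peak. The nearest GATA motif lay 5.5 bp from the summit in the Pkm intragenic peak and in the Pgam1 peak 5369 bp upstream. It lay 11.5 bp away in the Pfkm intron, 19.5 bp in the Pfkl intragenic peak and 70.5 bp in the Pkm peak 2929 bp upstream. Over all distal peaks with a motif this distance had a median of 17.5 bp. CACCC boxes, the letters read by KLF1 and its relatives (CCACACCC or CCCCACCC or CCGCACCC or CCTCACCC), were in the Pkm intragenic peak and in the Pkm peak 2929 bp upstream, which also held the only AP-1 match of the set. Within 50 bp of the summit, CACCC boxes and AP-1 matches were in 0 of the 15 peaks within 20 kb.

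The own promoter peaks had a median of 69.7% G and C within 100 bp of the summit, beside 55.2% for all promoter peaks, and their median ratio of observed to expected CpG was 0.802, beside 0.634. Pfkm was the exception, with 36.8% G and C, the lowest of the 21 peaks, and with 3 GATA motifs. The other 9 peaks within 20 kb had a median of 50.7% G and C, and the 12570 distal peaks of the whole list had 46.8%. G and C content thus differed between these groups of peaks, but the core counts did not follow it peak by peak. Pfkm held 3 cores, as did Pfkl and Pgam1 at 69.7% each, and Gapdh at 62.7% held 1. The Gpi1 peak and the Gapdh peak at 9623 bp both had 61.2%. The former held 5 cores and no GATA motif, and the latter a GATA motif and no core. The part of G and C content in the motif counts was not tested.

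**Figure D3:**
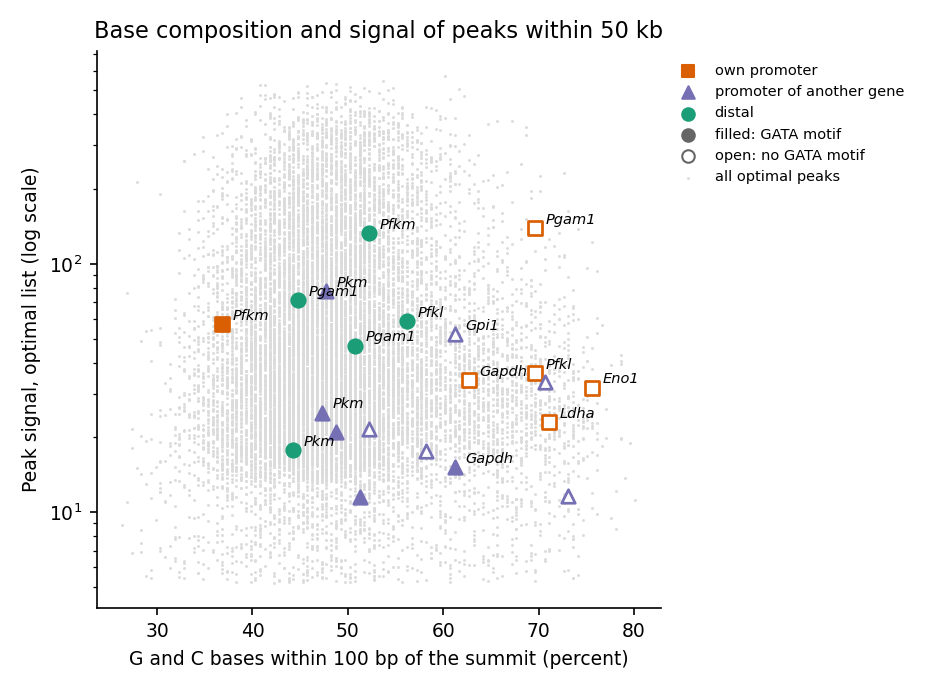
Percent G and C within 100 bp of the summit (horizontal) and optimal peak signal (vertical, log scale) for the 21 peaks within 50 kb of the glycolysis genes, with shape for peak class and filled symbols for peaks with a GATA motif, over all optimal peaks in grey. The 5 own promoter peaks other than Pfkm sit at high G and C and are open, and the 5 distal peaks are filled.

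The promoters themselves were also read in RefSeq's promoter sequences for GRCm38.p6, which run from 250 bases before to 50 after a gene's start. All 10 genes matched, with 19 promoters among 32851. Some promoters of Pfkm, Aldoa and Eno1 overlap over most of their length. The same letters can therefore count again in the 19, which are not separate sequences. G and C content ran from 36.7% to 69.0% over the 19, beside a median of 52.7% over all promoters. Its part in the counts was not tested. The hypoxia core was in 14 of the 19 promoters, beside 43.8% of all, and covered 8 of the 10 genes, Gpi1 and Tpi1 being without it. The GC box was in 10 of the 19, beside 35.7% of all. GATA motifs were in 6 of the 19, beside 29.8% of all. Gpi1 and Tpi1 are also among the 4 genes that lack an own promoter peak, but the promoters of Aldoa and Pkm hold the core and lack a peak as well.

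The unfiltered lists held weaker entries at the promoters without an optimal peak. Within 1 kb of an Aldoa TSS the strongest entry had signal 9.999 and rank 35355 of 300000 in the list pooled from both libraries. The strongest entry of each library there, which need not be the same one, had rank 11199 in replicate 1 (signal 14.5) and rank 73351 in replicate 2 (signal 5.49). At Tpi1 the pooled entry had signal 9.41 and rank 41409 and lay 32 bp downstream of a TSS. The strongest entry of replicate 2 was a different one, at -473 bp from a TSS (negative meaning upstream), with rank 26975 (signal 7.58), and replicate 1 had none within 1 kb. At Gpi1 the pooled entry had signal 9.21 and rank 43816, and at Pkm it had signal 8.57 and rank 55114. These 4 values were all below the pooled signals of the 6 promoters with an optimal peak, which began at 23.0. The optimal peaks are themselves entries of the pooled list, so this order is not independent of their selection. Signals in the optimal list went down to 5.20, below all 4 values. Of all protein-coding genes, 27.3% had a stronger pooled promoter entry than Aldoa and 31.5% a stronger one than Pkm, against 1.44% for Pgam1 and 12.7% for Ldha.

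**Figure D4:**
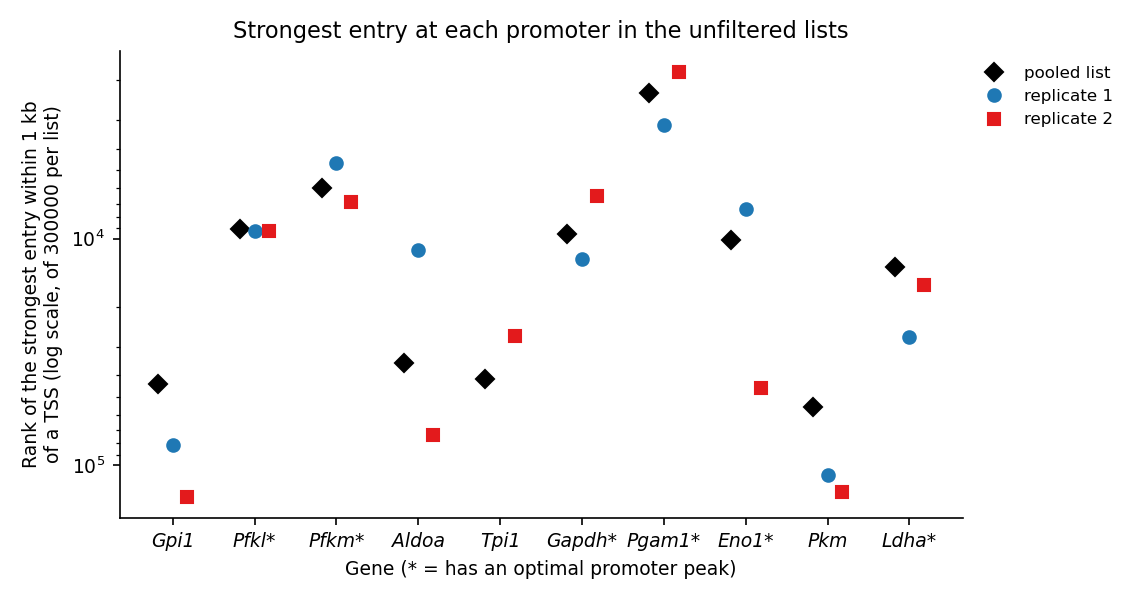
Rank of the strongest entry within 1 kb of a TSS of each gene (log scale, strongest at the top) in the pooled list and in the list of each library, with stars on genes that have an optimal promoter peak. Pgam1 ranks highest in the pooled list (2275) and Pkm lowest (55114), and Tpi1 has no symbol for replicate 1.

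The 52 other genes of glycolysis and its neighbouring reactions were counted the same way, and 28 of them had a peak within 20 kb, beside 38.6% of all protein-coding genes. A peak within 50 kb was found for 37, beside 53.7% of all. An own promoter peak was found for 16, beside 15.5%, and a distal peak within 20 kb for 19, beside 26.7%. The share of 38.6% is also the one to set beside each role group that follows. The median strongest peak of the 28 was 87.5. Among 18 isoenzymes and enzymes of other steps, 9 had a peak within 20 kb. Hk1, the hexokinase of red cells, had 7 peaks and a promoter peak of 229.7, and Pklr, the pyruvate kinase of liver and red cells, had 6 peaks with the strongest at 203.3. The strongest near Eno3 (115.3) was closest to Gp1ba, and that near Aldoc (46.5) to Unc119. The testis gene Ldhc was counted only through the Ldha promoter peak. Eno4 had none within 50 kb.

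Of 6 genes of the bypass and the regulators of flux, 4 had a peak within 20 kb. Bpgm, which makes the bisphosphoglycerate that tunes haemoglobin's oxygen affinity, had 5 peaks with the strongest at 319.3. Pfkfb2, which sets the activator of phosphofructokinase, had 7 peaks with the strongest at 424.6, inside the neighbouring gene AA986860. Its relatives Pfkfb1 and Pfkfb4 had promoter peaks of 120.7 and 51.5, and Pfkfb3 had none within 50 kb. Of 8 transport genes, 6 had a peak. These included Bsg (226.2), the chaperone of lactate carriers, the lactate carrier genes Slc16a1 (193.7) and Slc16a3 (93.1), and the glucose carrier gene Slc2a4 (149.7). Slc16a7 and Slc2a2, the glucose carrier gene of hepatocytes, had none within 50 kb.

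Of 13 genes of pyruvate entry into mitochondria, 6 had a peak within 20 kb. Among the pyruvate dehydrogenase kinase genes, the strongest near Pdk2 (321.0) was closest to Samd14, Pdk3 had 153.1, Pdk1 had a promoter peak of 60.8, and Pdk4, named after its value was seen, had none within 50 kb. Mpc2, of the mitochondrial pyruvate carrier, had a promoter peak of 61.0. Dlat and Dld, subunit genes of the pyruvate dehydrogenase complex, had none within 50 kb. Of 7 gluconeogenesis genes, 3 had a peak. Pcx, for pyruvate carboxylase, had a promoter peak of 292.8, the strongest near Pck2 (241.7) was closest to Dcaf11, and that near Slc37a4 (22.4) to Hyou1. The hepatocyte and kidney gene G6pc and the muscle gene Fbp2 had none within 50 kb. By strongest peak, Slc2a4 stood just above and Slc37a4 just below the range of the 8 enzyme genes with a peak.

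**Figure D5:**
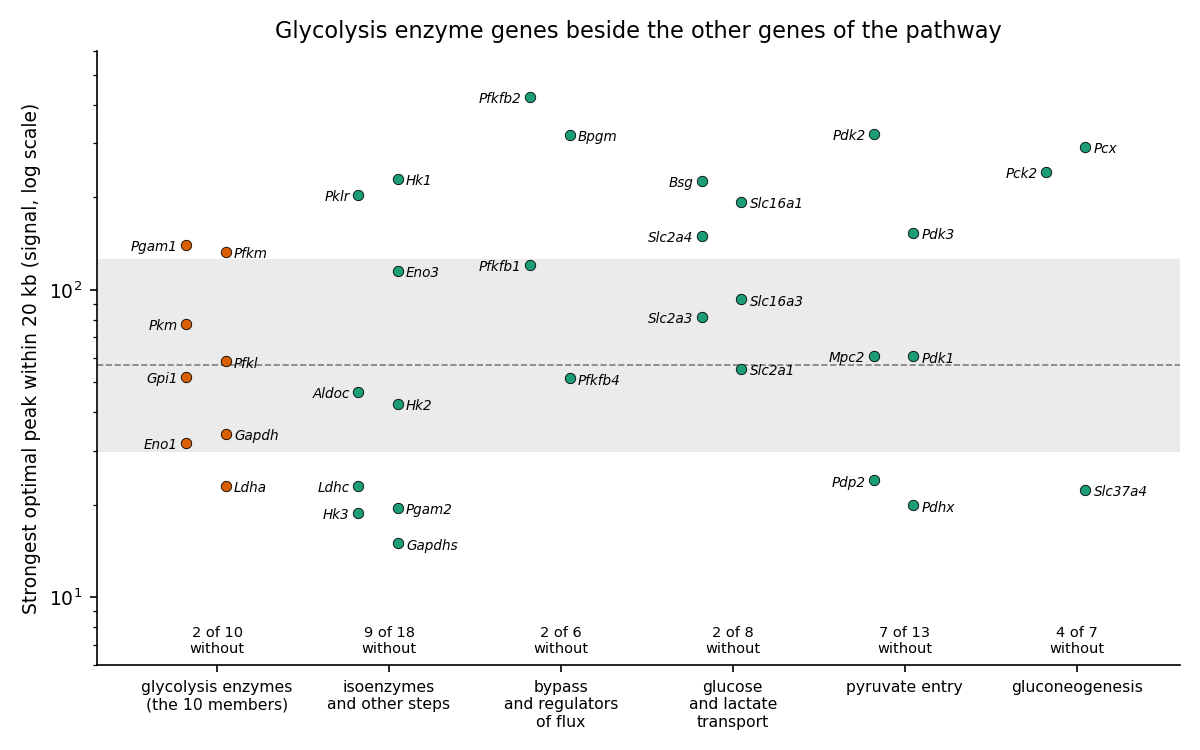
Strongest optimal peak within 20 kb (signal, log scale) of each glycolysis enzyme gene (orange) and of the other pathway genes by role (green), with the number of genes without such a peak under each group. The dashed line is the median over all protein-coding genes with a peak (56.8) and the band their interquartile range; the enzyme genes lie on both sides of the line, from 23.0 to 139.8.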

How the data were processed

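Analysis began from the narrowPeak files deposited by the authors, on mm10. Per the labels and the file listings deposited with the libraries, each library's list was called against a control, the pooled list used both, and the optimal and conservative lists were selected from these. Signal is the caller's non-negative value per peak in every deposited list, and the score, in the selected lists deposited by the authors, is a whole number up to 1000. All 17043 optimal peaks on the 19 autosomes and X were entries of the pooled list, 17041 with the same signal to 1 decimal, and 12 elsewhere were left out. For aligner, caller, threshold and depth, the sources used here give nothing.

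Summits were set against TSSs of GENCODE vM21 with Python 3.11.15, pandas 2.3.3 and numpy 2.4.6, and sequence was read with pysam 0.24.0 and samtools 1.23.1. A library matched a peak when its summit lay within 100 bp. The 12 motifs were searched on both strands in 201 bases. The counting code was tested on simulated data. No test was run. The members and lists were chosen with earlier results of these data known. Named genes were all 10 members, the nearest gene of each peak and, per role group of other genes, the 4 with the strongest peak within 20 kb and up to 2, alphabetically, with none within 50 kb, plus the pathway genes just above and below the members' range; 1 gene that this rule took is not reported here. Alternatives covered other lists, each library alone, windows of 5, 10 and 100 kb, promoter limits of 500 bp and 2.5 kb, match distances of 50 and 250 bp and motif windows of 50 and 150 bp on either side. Figures were drawn with matplotlib 3.10.9.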

Additional observations from a re-analysis of the deposited data

How the results depend on the processing

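Of 115 values recomputed, 53 concern the counts and the median that answer the questions posed. Of these, 48 stayed within the limit set for a change, which was 1.5 times for a count. For the median the limit was the standard deviation of its values with either library left out. A count of 8 or 9 of the 10 genes could not rise beyond 1.5 times. A count could also stay within the limit while its genes changed. The tally is therefore no measure of stability. With only optimal peaks above the median signal, 5 genes had a peak within 20 kb and 5 within 50 kb (Gpi1, Pfkl, Pfkm, Pgam1 and Pkm), and 2 had a promoter peak (Pfkm and Pgam1). The corresponding shares of all protein-coding genes were 25%, 39.1% and 7.18%. With a 5 kb window, 17 of the 52 other pathway genes had a peak, beside 23.5% of all protein-coding genes. The median over the 10 genes of the percent of protein-coding genes with a stronger peak (for a gene without a peak, with any peak) was 23.6, and it ran from 19.6 without replicate 1 to 23.8 without replicate 2. With 1 library left out, 8 to 9 genes had a peak within 20 kb and 9 to 9 within 50 kb. Promoter peaks were then at 5 to 6 genes and distal peaks at 3 to 4, and 27 to 29 other pathway genes had a peak. Without replicate 2, the 6 genes with a promoter peak included Aldoa and no longer Ldha. Of all protein-coding genes, 39.8% to 40.5% then had a peak within 20 kb and 54.7% to 55.1% within 50 kb. A promoter peak was found at 17.1% to 17.8% of all and a distal peak at 26.8% to 27.1%. Eno1 lost its peak without replicate 1 and in the conservative list, and Ldha lost it without replicate 2. Aldoa gained a peak in the conservative list and without replicate 2, and Tpi1 gained one in the conservative list, among equally many top pooled entries and with either library left out. The cause was not tested. Among the values for single genes and motifs, 45 stayed the same and 17 moved. With motifs searched within 50 bp of the summit, CACCC boxes went from 2 of the 15 peaks within 20 kb to 0. AP-1 and the cyclic AMP response element went from 1 to 0 each, and CACGTG from 2 to 1. The GATA motif went from 9 to 8 and the hypoxia core from 7 to 6. For a single gene the limit was the standard deviation of its values with either library left out. It was therefore widest where the libraries differed most, at 12.1 for Eno1 against 0.853 for Pkm. The labels do not rank the genes by stability. No paired analysis was possible because the series has 1 group and no comparison. Depth is unknown, so a weak promoter entry such as that of Tpi1 or Pkm is outside the selected lists but is not shown to be absent.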
